A study of Mus musculus with 6 samples.

Results

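The vasoactive mediator genes of the endothelium described here are 10 listed symbols: Edn1 and Ece1 (endothelin), Nos3 (nitric oxide), Ptgs1, Ptgs2 and Ptgis (prostanoids), Adm, Calcrl and Ramp2 (adrenomedullin), and Ace (angiotensin and kinin). All 10 were found among the 30055 symbols of the deposited table, and all 10 passed the filter on low counts that kept 15035 genes. They were listed by symbol, with no threshold on their values but with earlier results of these data known.

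Gene expression was measured by polyA RNA sequencing of cultured lung endothelial cells from C57BL6 mice, labelled female and 3 weeks old. All cells, controls included, lacked Ch25h, which encodes cholesterol 25-hydroxylase, so no result here compares them with cells that have the gene. The first group received vesicles after reserpine (TEV plus reserpine): reserpine, a blocker of vesicular monoamine transport, at 10 µM for 8 h, then tumour-derived extracellular vesicles (TEV) of MC38 mouse colorectal cancer cells at 20 µg per ml for 12 h. The second group received the vesicles without reserpine (TEV) and the third received vehicle, given as PBS in the design text. Each group held 2 libraries. Cells given reserpine without vesicles were not analysed here, so an effect of the drug alone and an effect on the response to vesicles cannot be told apart. Whether the 2 libraries of a group came from separate cultures or animals is not stated, and every p-value measures only the spread between these libraries, which may be technical.

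Endothelial cells set vessel tone by releasing short-lived mediators to the smooth muscle around them. Endothelin-1 is a constrictor peptide cut from its precursor by endothelin-converting enzyme, whereas nitric oxide from endothelial nitric oxide synthase, prostacyclin and adrenomedullin relax the vessel. Prostanoids begin with arachidonic acid, which the cyclooxygenases turn into prostaglandin H2, the shared substrate of the prostacyclin, thromboxane and prostaglandin E synthases. Adrenomedullin acts on the receptor CALCRL only when a RAMP protein is bound to it, and in mice this system is needed for the formation of lymphatic vessels. Angiotensin-converting enzyme, which lung capillaries carry at a high level, makes angiotensin II and degrades bradykinin.

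Promoter sequences from RefSeq (GRCm38.p6), covering 250 bases before to 50 after a gene's start, were at hand for 7 of the 10 genes. Those of Edn1, Ptgs1 and Ptgs2 are shown, since Edn1 had the largest rise of the 10 genes with TEV, and since the cyclooxygenase genes Ptgs1 and Ptgs2 had different patterns: Ptgs1 fell in all 3 comparisons, and Ptgs2 fell where reserpine was given. They lie at chr13:42301226-42301525, chr2:36230176-36230475 and chr1:150099781-150100080, all on the plus strand. Capitals mark matches on either strand to 7 motifs, and the start of the gene follows base 250.
Edn1: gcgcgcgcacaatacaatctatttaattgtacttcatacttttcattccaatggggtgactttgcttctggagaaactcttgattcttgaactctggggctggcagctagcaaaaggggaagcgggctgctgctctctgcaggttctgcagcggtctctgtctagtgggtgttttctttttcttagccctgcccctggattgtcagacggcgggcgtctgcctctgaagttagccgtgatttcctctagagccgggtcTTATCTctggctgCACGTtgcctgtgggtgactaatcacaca
Ptgs1: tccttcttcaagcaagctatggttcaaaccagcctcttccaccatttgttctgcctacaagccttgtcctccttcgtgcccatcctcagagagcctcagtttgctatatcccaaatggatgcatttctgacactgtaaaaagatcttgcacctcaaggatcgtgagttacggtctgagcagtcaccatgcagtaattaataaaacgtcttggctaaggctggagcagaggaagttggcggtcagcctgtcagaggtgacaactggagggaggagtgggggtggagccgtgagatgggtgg
Ptgs2: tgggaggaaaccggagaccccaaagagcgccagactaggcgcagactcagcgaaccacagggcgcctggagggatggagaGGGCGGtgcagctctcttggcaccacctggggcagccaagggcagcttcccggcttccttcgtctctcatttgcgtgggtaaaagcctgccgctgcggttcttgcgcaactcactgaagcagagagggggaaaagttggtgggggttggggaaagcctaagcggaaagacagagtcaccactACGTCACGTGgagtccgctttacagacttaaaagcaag

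The motifs were the TATA box TATAAA (found in 13.6% of 32817 promoter windows of the same length), the AP-1 motif TGANTCA (7.81%), the CRE core TGACGT (7.51%), the hypoxia response core ACGTG (19.6%), the GATA motif AGATAA (11.2%), the GC box GGGCGG (35.6%), and the NF-kappaB consensus (8.46%). The Edn1 window held a GATA match at bases 9 to 14 after the start and a hypoxia response core at bases 22 to 26, each on the minus strand. In the Ptgs2 window a CRE core at bases 13 to 18 overlapped a pair of hypoxia response cores, at bases 17 to 21 and 18 to 22, and a GC box lay at -170 to -165. The Ptgs1 window held no match to any of the 7, which says only that these letters are not in it. G and C made up 51.3% of the Edn1, 50.7% of the Ptgs1 and 59.3% of the Ptgs2 window. A match is a description of letters and no evidence of binding. Positions are counted from the RefSeq start, and where transcription starts in these cells was not tested.

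Library totals ran from 22270657 to 81225627 estimated counts, the deepest being TEV replicate 2, and values below are CPM, each count scaled to a common library total with TMM factors. Ch25h had 23.8 and 31.7 estimated counts with TEV plus reserpine, 11.9 and 40.8 with TEV, and 15.2 and 9.09 with vehicle. Which stretch was deleted is not stated, and these few reads do not check the genotype. As CPM these were 1.07 and 0.919 with TEV plus reserpine, 0.333 and 0.522 with TEV, and 0.348 and 0.313 with vehicle, and Ch25h was called higher with TEV plus reserpine than with vehicle (3.01-fold, log2 change 1.57, edgeR adjusted p = 0.0334). It was not called between TEV plus reserpine and TEV (1.18, edgeR adjusted p = 0.0797) or between TEV and vehicle (0.39, 0.509).

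The endothelial label held in every library, and the lymphatic markers given below were found in every library too. Pecam1 stood at 1748 and 1769.9 CPM with TEV plus reserpine, 2028 and 1927 CPM with TEV, and 735 and 747 CPM with vehicle. The 15 endothelial markers summed to 11117 and 10882 CPM with TEV plus reserpine, 12909.5 and 12420.2 CPM with TEV, and 5422 and 5384 CPM with vehicle. The single markers changed unequally. Emcn had 2680 and 2484 CPM with TEV against 356 and 365 CPM with vehicle, and Cd34 had 2341 and 2018 CPM against 206 and 222 CPM. Cdh5 had 2272 and 2241 CPM with TEV against 1751 and 1748 CPM with vehicle, and Kdr had 65.3 and 105.3 CPM against 343 and 306 CPM. At an edgeR adjusted p under 0.05, 39.1% of all genes tested were called with TEV plus reserpine against vehicle. With TEV against vehicle 49.7% were called. The marker counts below are to be read beside these shares. Of the 15 endothelial markers, 12 were higher and 1 lower with TEV plus reserpine than with vehicle by edgeR. With TEV, 10 were higher and 4 lower than with vehicle. Among those lower with TEV, Cldn5, a tight junction gene, had 182 and 148 CPM with TEV plus reserpine, 20.2 and 37.3 CPM with TEV, and 221 and 219.95 CPM with vehicle. Vwf, the von Willebrand factor gene, had 8.44 and 6.63 CPM with TEV plus reserpine, 5.77 and 5.88 CPM with TEV, and 51.3 and 43.4 CPM with vehicle. Vehicle libraries also held markers of other cells. The 10 fibroblast markers summed to 102 and 84.1 CPM with TEV plus reserpine, 56.9 and 68.0 CPM with TEV, and 3361 and 2911 CPM with vehicle. By edgeR 8 of the 9 tested fibroblast markers were lower with TEV plus reserpine, and all 9 were lower with TEV, than with vehicle. The 10 pericyte and smooth muscle markers summed to between 849.5 and 931 CPM with TEV plus reserpine, 782 and 891 CPM with TEV, and 1999 and 2022 CPM with vehicle. Of the 9 tested, 8 were lower with TEV plus reserpine and 9 with TEV than with vehicle, and 0 were higher. Tagln made up most of the vesicle sums, at 719 and 659 CPM with TEV plus reserpine and 648 and 719 CPM with TEV (824 and 846 CPM with vehicle). The 9 macrophage and leukocyte markers in the table summed to 30.6 and 29.8 CPM with TEV plus reserpine, 24.7 and 23.1 CPM with TEV, and 50.3 and 62.0 CPM with vehicle. The 11 epithelial and mesothelial markers summed to 58.8 and 52.9 CPM with TEV plus reserpine, 59.9 and 62.8 CPM with TEV, and 36.5 and 33.8 CPM with vehicle. That sum was carried by Krt18 and Krt19: of the 8 tested, 1 was higher and 4 lower with TEV plus reserpine, and 2 higher and 5 lower with TEV, than with vehicle. Cspg4, a pericyte gene, was at 0 in all 4 libraries with vesicles, and Epcam, an epithelial gene, was at 0 in 5 of 6 libraries. The 5 lymphatic markers summed to between 1191 and 1579 CPM in the 6 libraries, with 1 higher and 3 lower with TEV plus reserpine, and 0 higher and 3 lower with TEV, than with vehicle. One of them, Reln, had 50.3 and 47.0 CPM with TEV plus reserpine, 139 and 104 CPM with TEV, and 318 and 322 CPM with vehicle. In the same order Prox1 had 72.0 and 78.4, 113 and 102, and 160.4 and 129.9 CPM. Flt4 had 800.4 and 778 CPM, 578 and 632 CPM, and 674 and 664 CPM, and Lyve1 had 270.1 and 276, 173 and 204, and 241 and 233 CPM. With TEV plus reserpine against TEV, 2 of the 5 were higher and 3 lower, beside 15.7% and 16% of all genes tested. In bulk RNA, fewer cells of a type and less RNA per cell cannot be told apart.

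**Figure D1:**
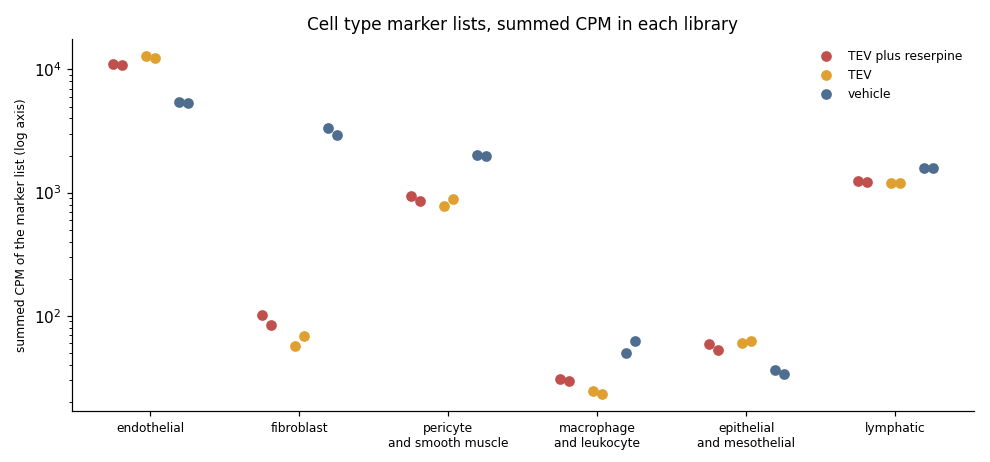
Summed CPM of 6 marker lists (log axis) in each library, coloured by group, with points side by side for the 2 libraries of a group. The fibroblast sum stood at 56.9 to 102 CPM in the 4 libraries with vesicles and at 2911 and 3361 CPM with vehicle, while the endothelial sum was lowest with vehicle.

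With TEV, 6 of the 10 vasoactive genes rose and 2 fell against vehicle. Edn1, Nos3, Adm, Ptgs2, Calcrl and Ece1 were the genes that rose, and Ptgs1 and Ramp2 those that fell; the Ptgs2 call was lost in 10 of 16 alternative settings. Over all 15035 genes tested by edgeR at an adjusted p under 0.05, 49.7% were called, 25.1% higher and 24.6% lower. Endothelial markers summed higher with TEV and fibroblast markers lower, as given above, and their part in the rises of Edn1, Nos3, Adm, Calcrl and Ece1 was not tested. The median log2 change of the 10 genes was 0.61, beside 0.01 for all genes tested. Without TMM factors the median of all genes was -0.11 with 39.8% of calls on the higher side (50.5% with TMM), which left 5 of the 10 genes higher and 2 lower.

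Between TEV plus reserpine and TEV, 2 of the 10 genes rose with reserpine, Ramp2 and Ace, and 3 fell, Ptgs2, Ptgs1 and Calcrl. The background was 31.6% of all genes called, 15.7% higher and 16% lower, and the medians were 0.14 for the 10 genes and 0.00 for all. Against vehicle, 5 rose with TEV plus reserpine, namely Edn1, Nos3, Adm, Ece1 and Ace, and Ptgs1 and Ptgs2 fell. There the background was 39.1% called, 19.1% higher and 19.9% lower, with medians of 0.50 and -0.02. The comparisons share libraries, so their counts are not independent of each other.

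**Figure D2:**
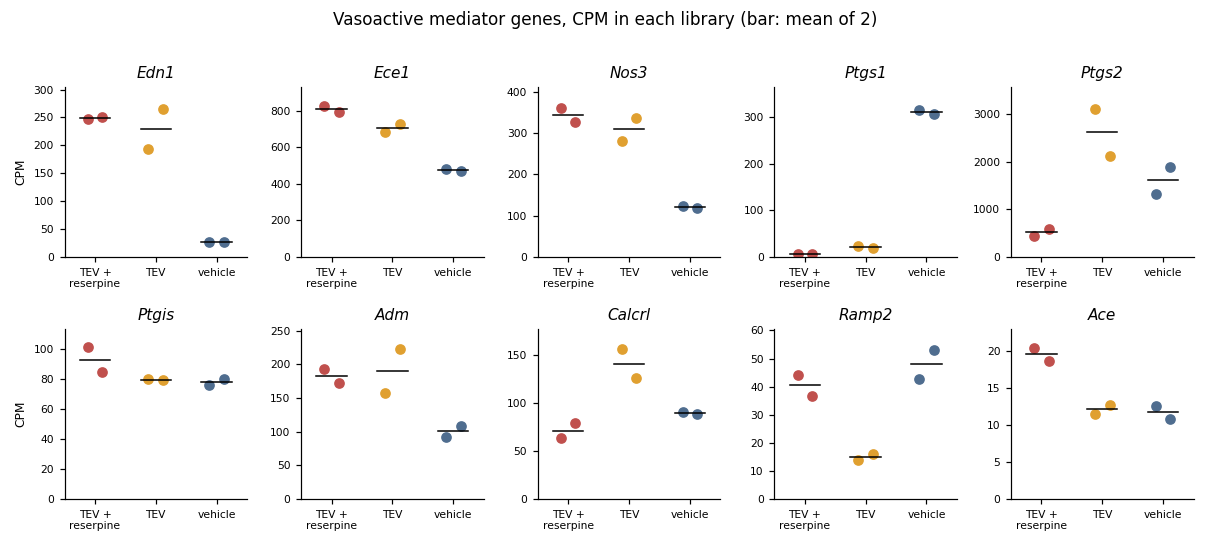
CPM of the 10 genes in each library, with TEV plus reserpine left, TEV in the middle and vehicle right; points are libraries and bars are means of 2. Edn1 and Nos3 were high in all 4 libraries with vesicles, Ptgs1 was high only with vehicle, and Ramp2 was lowest with TEV.

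**Figure D3:**
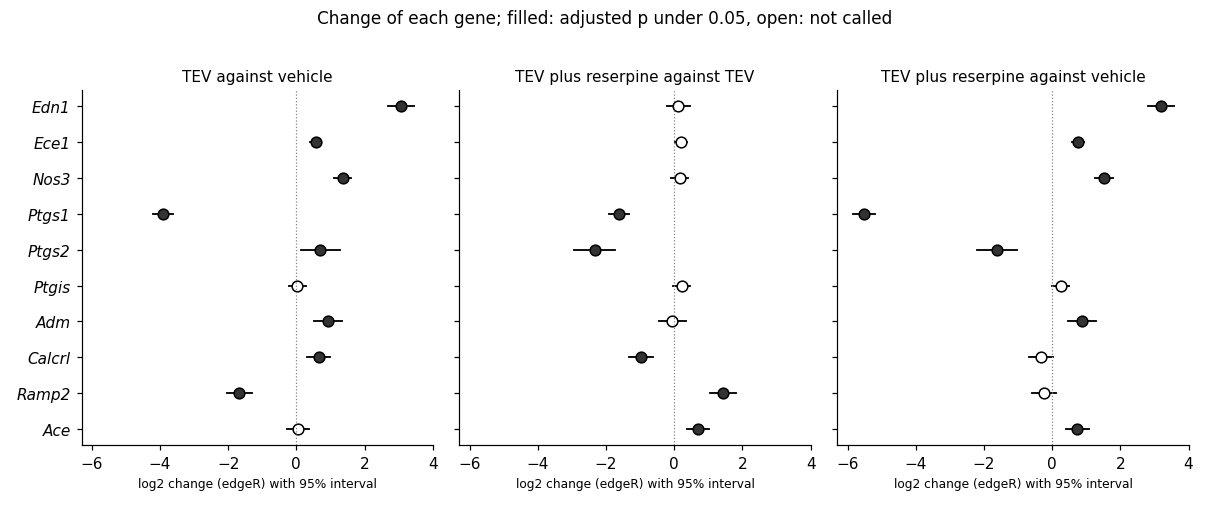
Log2 change of each gene by edgeR in the 3 comparisons, with its 95% interval; filled points are called at an adjusted p under 0.05. Edn1 lay at 3.08 and Ptgs1 at -3.90 in TEV against vehicle, and Ptgs2 at -2.33 in TEV plus reserpine against TEV.

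Endothelin came first in size among the genes that rose. Edn1, the gene of the endothelin-1 precursor, stood at 247 and 251 CPM with TEV plus reserpine, 193 and 265 CPM with TEV, and 26.6 and 27.6 CPM with vehicle. All 4 libraries with vesicles lay far above both with vehicle, and the vesicle groups overlapped each other. Edn1 rose 8.42-fold with TEV (228.7 ± 50.8 against 27.1 ± 0.714 CPM, SD, n = 2 each; log2 change 3.08, SE 0.16, edgeR adjusted p = 2.45e-05). Against vehicle it rose 9.17-fold with TEV plus reserpine (log2 change 3.20, SE 0.16, edgeR adjusted p = 4.47e-05). Between TEV plus reserpine and TEV no change was called (log2 change 0.12, 95% interval -0.22 to 0.46, edgeR adjusted p = 0.548). That value was decided by the TEV libraries, at -0.09 without TEV replicate 1 and at 0.38, then called, without TEV replicate 2 (edgeR adjusted p = 0.0257).

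Ece1, the protease that releases active endothelin-1, was already abundant and moved less. It stood at 825 and 794 CPM with TEV plus reserpine, 680.4 and 728 CPM with TEV, and 483 and 469.7 CPM with vehicle. The 3 groups did not overlap. Ece1 rose 1.48-fold with TEV (log2 change 0.56, SE 0.07, edgeR adjusted p = 0.000927) and 1.70-fold with TEV plus reserpine against vehicle (log2 change 0.77, SE 0.07, edgeR adjusted p = 0.000399). Between the vesicle groups it missed the threshold (log2 change 0.20, 95% interval 0.03 to 0.37, edgeR adjusted p = 0.0744), though it passed with library size alone (0.0332) and with DESeq2 (0.0134).

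The endothelin receptor genes were lower with TEV plus reserpine than with vehicle. Ednrb, the receptor that endothelial cells carry and that clears endothelin, stood at 8.75 and 9.70 CPM with TEV plus reserpine, 24.3 and 28.7 CPM with TEV, and 35.4 and 31.9 CPM with vehicle. It fell to 0.348 of the TEV level with TEV plus reserpine (log2 change -1.52, edgeR adjusted p = 0.000895) and to 0.274 of the vehicle level (log2 change -1.86, edgeR adjusted p = 0.000150). With TEV against vehicle its log2 change of -0.34 was not called (edgeR adjusted p = 0.0614), but was called in 5 of 16 alternatives, among them library size alone (-0.47, 0.0257) and without TEV replicate 2 (-0.47, 0.0477). Ednra, the constrictor receptor of smooth muscle, had 0.0447 and 0 CPM with TEV plus reserpine, 0 and 0.0255 CPM with TEV, and 3.48 and 2.65 CPM with vehicle. Counts of 2 with TEV and 226 with vehicle put the level 180.0-fold lower (exact 95% interval 49.4 to 1500.0, counting error alone; edgeR adjusted p = 0.000488). A single count remained with TEV plus reserpine, where the interval ran from 32.0 to 7150.0 (edgeR adjusted p = 0.00116). Pericyte and fibroblast markers were also lower in those libraries than with vehicle, and their part in the Ednra result was not tested. Of 7 other endothelin genes 5 were tested, of which 0 were higher and 1 lower with TEV plus reserpine against TEV, 0 and 3 with TEV plus reserpine against vehicle, and 0 and 1 with TEV against vehicle. The shares of all genes tested that were called are 31.6%, 39.1% and 49.7% in that order.

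Nos3, endothelial nitric oxide synthase, rose with vesicles and was not called between the vesicle groups. Its level was 361 and 327 CPM with TEV plus reserpine, 282 and 336 CPM with TEV, and 123 and 118 CPM with vehicle. The vesicle groups overlapped each other and both lay above vehicle. Nos3 rose 2.57-fold with TEV (309 ± 38.3 against 120.3 ± 3.47 CPM, SD, n = 2 each; log2 change 1.36, SE 0.11, edgeR adjusted p = 0.000128). It rose 2.86-fold with TEV plus reserpine against vehicle (log2 change 1.52, SE 0.11, edgeR adjusted p = 0.000141). The endothelial markers summed to 12909.5 and 12420.2 CPM with TEV against 5422 and 5384 CPM with vehicle, with unequal changes of the single markers. Emcn had 2680 and 2484 CPM with TEV against 356 and 365 CPM with vehicle, and Cdh5 had 2272 and 2241 CPM against 1751 and 1748 CPM. Of the 15, 10 were higher and 4 lower, with a median log2 change of 0.48, beside 49.7% of all genes tested called. The part of these markers in the Nos3 rise was not tested. The change between TEV plus reserpine and TEV was 0.15 (95% interval -0.10 to 0.40, edgeR adjusted p = 0.295).

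Genes that act on the nitric oxide synthases moved in both directions. Cav1, the caveolar coat gene whose protein holds the endothelial enzyme inactive, stood at 1183 and 1121 CPM with TEV plus reserpine, 714 and 895 CPM with TEV, and 309 and 302 CPM with vehicle. Cav1 rose with TEV (log2 change 1.40, edgeR adjusted p = 0.000147) and with TEV plus reserpine against vehicle (1.91, 8.02e-05). It was also called higher with TEV plus reserpine than with TEV (0.52, edgeR adjusted p = 0.0155), a call that ended without replicate 1 (0.48, 0.0777) or 2 (0.56, 0.0531) of TEV plus reserpine. Nos2, the inducible synthase, ran the other way, at 5.23 and 3.65 CPM with TEV plus reserpine, 0.639 and 0.815 CPM with TEV, and 9.57 and 13.4 CPM with vehicle. The 3 groups were apart, with TEV lowest. Nos2 fell with TEV (log2 change -3.95, edgeR adjusted p = 0.000120), was higher with TEV plus reserpine than with TEV (2.58, 0.00203) and was lower there than with vehicle (-1.38, 0.00807). Markers of macrophages and leukocytes, of which macrophages can carry Nos2, also summed lowest with TEV, but the list was mixed. Of the 9 tested, 1 was higher and 5 lower with TEV than with vehicle. With TEV plus reserpine against TEV, 1 was higher and 1 lower. In these comparisons 49.7% and 31.6% of all genes tested were called. The part of these markers in the Nos2 result was not tested.

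Arginine, the substrate of the synthases, is remade from citrulline by Ass1 and then Asl. Ass1 stood at 68.6 and 65.9 CPM with TEV plus reserpine, 30.8 and 32.1 CPM with TEV, and 38.7 and 52.5 CPM with vehicle. It was higher with TEV plus reserpine than with TEV (log2 change 1.09, edgeR adjusted p = 0.00317). Against vehicle it was called at 0.56 with TEV plus reserpine (edgeR adjusted p = 0.0227) and at -0.53 with TEV (0.0214). The first of these calls ended without TEV plus reserpine replicate 1 (edgeR adjusted p = 0.0897) or 2 (0.0702), or vehicle replicate 1 (0.0903). The second ended without TEV replicate 1 (edgeR adjusted p = 0.0966) or 2 (0.0626), or vehicle replicate 2 (0.104). Asl went the opposite way, at 23.3 and 25.7 CPM with TEV plus reserpine, 42.3 and 46.3 CPM with TEV, and 28.5 and 27.4 CPM with vehicle. It was lower with TEV plus reserpine than with TEV (-0.85, edgeR adjusted p = 0.00232) and higher with TEV than with vehicle (0.66, 0.00213). Ddah1, which degrades a natural inhibitor of the synthases, stood at 273 and 270.5 CPM with TEV plus reserpine, 205 and 226 CPM with TEV, and 131 and 137 CPM with vehicle. It rose with TEV (log2 change 0.69, edgeR adjusted p = 0.000629) and with TEV plus reserpine (1.02, 0.000199) against vehicle. The change between TEV plus reserpine and TEV was 0.33 (edgeR adjusted p = 0.0220), and its call ended without TEV plus reserpine replicate 1 (0.33, 0.0844) or 2 (0.34, 0.0759), or TEV replicate 1 (0.26, 0.105). Gch1, which opens the synthesis of tetrahydrobiopterin, the cofactor of the synthases, stood at 27.2 and 26.9 CPM with TEV plus reserpine, 16.9 and 16.7 CPM with TEV, and 13.4 and 20.6 CPM with vehicle. Its calls with TEV plus reserpine against TEV (0.69, edgeR adjusted p = 0.0384) and against vehicle (0.68, 0.0343) each ended when 1 library was left out: without either library of TEV plus reserpine or of TEV in the first case (0.107 to 0.139), and without vehicle replicate 1 or either library of TEV plus reserpine in the second (0.105 to 0.110). With TEV against vehicle Gch1 was not called (-0.01, edgeR adjusted p = 0.9754). Of the 26 genes of this list, all tested, 13 were higher and 6 lower with TEV against vehicle, 6 and 7 with TEV plus reserpine against TEV, and 9 and 5 with TEV plus reserpine against vehicle. Of all genes tested, 49.7%, 31.6% and 39.1% were called in these comparisons.

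The cyclooxygenase genes Ptgs1 and Ptgs2 differed in pattern. Ptgs1, the constitutive cyclooxygenase, stood at 6.92 and 6.66 CPM with TEV plus reserpine, 23.2 and 18.7 CPM with TEV, and 316 and 308 CPM with vehicle. The groups did not overlap and each step between them was larger than the spread of its libraries. Ptgs1 fell with TEV to 0.0672 of the vehicle level (20.95 ± 3.15 against 312 ± 5.88 CPM, SD, n = 2 each; log2 change -3.90, SE 0.12, edgeR adjusted p = 4.7e-06). It fell further with TEV plus reserpine, to 0.324 of the TEV level (log2 change -1.62, SE 0.13, edgeR adjusted p = 0.000671). Against vehicle the level was 45.9-fold lower with TEV plus reserpine (log2 change -5.52, SE 0.14, edgeR adjusted p = 3.55e-06), where it ranked 10 of 15035 genes by p. Fibroblast and pericyte markers also fell with vesicles against vehicle. Between TEV plus reserpine and TEV, 4 of the 9 tested fibroblast markers were called higher and 0 lower, beside 15.7% and 16% of all genes tested. Fibroblast sums were low in both vesicle groups, at 102 and 84.1 CPM with TEV plus reserpine and 56.9 and 68.0 CPM with TEV. The part of these markers in the Ptgs1 changes was not tested.

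Ptgs2, the inducible cyclooxygenase, stood at 449 and 594 CPM with TEV plus reserpine, 3109 and 2132 CPM with TEV, and 1325 and 1898 CPM with vehicle. Both libraries with reserpine lay under all others, and both TEV libraries lay above both with vehicle. Ptgs2 fell to 0.199 of the TEV level with TEV plus reserpine (521 ± 103 against 2620.4 ± 691 CPM, SD, n = 2 each; log2 change -2.33, SE 0.25, edgeR adjusted p = 0.00162). The fall below vehicle was 3.09-fold (log2 change -1.63, SE 0.25, edgeR adjusted p = 0.00286). The rise with TEV against vehicle was 1.63-fold and close to the threshold (log2 change 0.70, SE 0.24, 95% interval 0.13 to 1.28, edgeR adjusted p = 0.0479). That call ended in 10 of 16 alternatives, among them without vehicle replicate 1 (log2 change 0.47, edgeR adjusted p = 0.198), without TEV replicate 1 (0.42, 0.224), without replicate 1 (0.71, 0.0509) or 2 (0.70, 0.0542) of TEV plus reserpine, with the replicate block (0.72, 0.0622), and with library size alone (0.57, 0.0847).

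Ptgis, prostacyclin synthase, was called in none of the comparisons by edgeR. It stood at 101.3 and 84.1 CPM with TEV plus reserpine, 79.8 and 79.0 CPM with TEV, and 75.8 and 79.6 CPM with vehicle. TEV and vehicle overlapped, and the change between them was 0.03 (95% interval -0.22 to 0.28, edgeR adjusted p = 0.821), of a sign that differed between settings. For TEV plus reserpine it was 0.22 against TEV (95% interval -0.03 to 0.47, edgeR adjusted p = 0.150) and 0.25 against vehicle (95% interval 0.00 to 0.51, edgeR adjusted p = 0.101). Without TEV plus reserpine replicate 2 the last of these was called (0.39, edgeR adjusted p = 0.0363). An unadjusted p of 0.0481 was the smallest of the 3.

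Among partner genes of the cyclooxygenases, Pla2g4a and Ptges were called in 2 comparisons each. Pla2g4a, the phospholipase that releases arachidonic acid, stood at 43.0 and 59.1 CPM with TEV plus reserpine, 279 and 158 CPM with TEV, and 198 and 180.5 CPM with vehicle. Its libraries with reserpine lay under all others, as for Ptgs2. On the log2 scale Pla2g4a fell by 2.09 against TEV (edgeR adjusted p = 0.00311) and fell by 1.89 against vehicle (0.00253), and TEV against vehicle was not called (0.21, 0.542). Ptges, the inducible prostaglandin E synthase, was high with vehicle alone, at 129 and 300.4 CPM, against 4.51 and 6.43 CPM with TEV plus reserpine and 3.83 and 4.65 CPM with TEV. The vehicle libraries differed from each other by more than the vesicle groups did. Its log2 change was -5.64 with TEV (SE 0.45, edgeR adjusted p = 0.000138) and -5.27 with TEV plus reserpine (SE 0.45, edgeR adjusted p = 0.000273) against vehicle. As with Ptgs1, markers of other cells fell beside it, and their part was not tested.

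Among prostanoid receptors, Ptger4, a receptor of prostaglandin E2 that raises cyclic AMP, stood at 7.50 and 6.46 CPM with TEV plus reserpine, 17.7 and 15.4 CPM with TEV, and 3.76 and 2.89 CPM with vehicle. The groups were apart, with TEV highest. Ptger4 rose with TEV (log2 change 2.30, edgeR adjusted p = 0.000170), fell with TEV plus reserpine against TEV (-1.25, 0.00470) and stayed above vehicle there (1.06, 0.00604). Ptgir, the prostacyclin receptor found on smooth muscle and platelets, had 0.134 and 0.230 CPM with TEV plus reserpine, 0.0833 and 0.216 CPM with TEV, and 3.00 and 3.69 CPM with vehicle. It was lower than vehicle with TEV (log2 change -4.34, edgeR adjusted p = 0.000651) and with TEV plus reserpine (-4.13, 0.00147). Smooth muscle markers were lower there too, and their part in the Ptgir result was not tested. Slco2a1, the transporter that takes prostaglandins up for breakdown, had 87.9 and 88.4 CPM with TEV plus reserpine, 52.1 and 62.1 CPM with TEV, and 31.3 and 29.2 CPM with vehicle. Each of its 3 differences was called, at 0.92 for TEV against vehicle, 0.63 for TEV plus reserpine against TEV and 1.54 for TEV plus reserpine against vehicle (log2 changes, edgeR adjusted p = 0.000682, 0.00747 and 0.000143). Of 21 other prostanoid genes 17 were tested, with 2 higher and 8 lower with TEV against vehicle, 4 and 3 with TEV plus reserpine against TEV, and 2 and 7 with TEV plus reserpine against vehicle (all genes tested: 49.7%, 31.6% and 39.1% called).

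**Figure D4:**
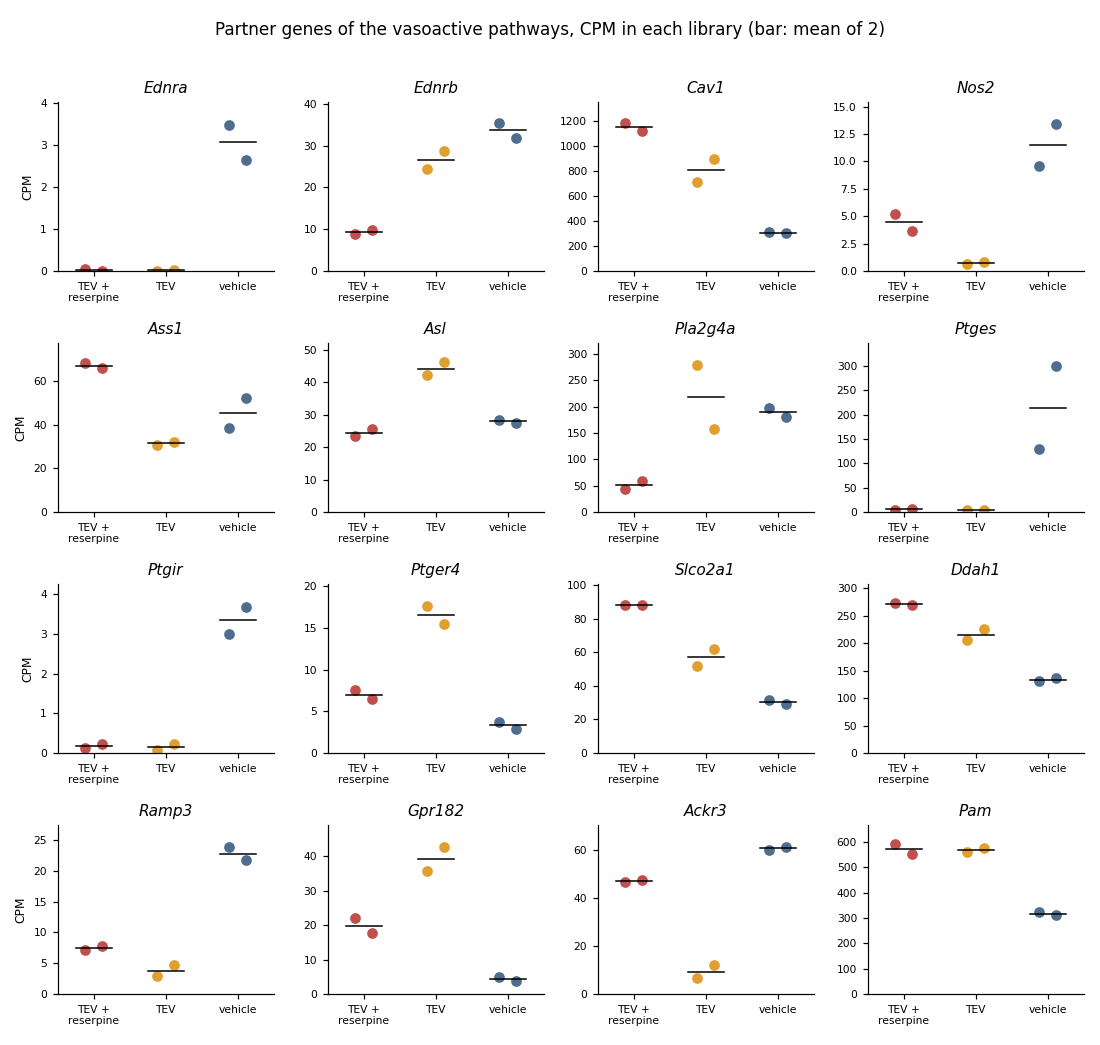
CPM of 16 partner genes in each library, with TEV plus reserpine left, TEV in the middle and vehicle right; points are libraries and bars are means of 2. Ptges, Ednra and Ptgir were high only with vehicle, Pla2g4a was low only with TEV plus reserpine, and Gpr182 and Ptger4 were highest with TEV.

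Adrenomedullin and the parts of its receptor did not move together. Adm, the peptide gene, stood at 194 and 172 CPM with TEV plus reserpine, 158 and 222 CPM with TEV, and 92.5 and 108 CPM with vehicle. The vesicle groups overlapped each other and lay above vehicle. Adm rose 1.89-fold with TEV (log2 change 0.92, SE 0.17, edgeR adjusted p = 0.00456) and 1.82-fold with TEV plus reserpine (log2 change 0.87, SE 0.17, edgeR adjusted p = 0.00822) against vehicle. The second of these calls ended without vehicle replicate 1 (log2 change 0.76, edgeR adjusted p = 0.0515). Between the vesicle groups the change was -0.06 (95% interval -0.46 to 0.35, edgeR adjusted p = 0.823), and its sign differed between settings. Without TEV replicate 2 it was 0.23, and without TEV plus reserpine replicate 2 it was 0.03.

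Calcrl, the receptor itself, stood at 63.1 and 79.6 CPM with TEV plus reserpine, 156 and 126 CPM with TEV, and 90.8 and 88.8 CPM with vehicle. TEV was highest and the groups did not overlap. Calcrl rose 1.57-fold with TEV against vehicle (log2 change 0.65, SE 0.14, edgeR adjusted p = 0.00908) and fell to 0.506 of the TEV level with TEV plus reserpine (log2 change -0.98, SE 0.14, edgeR adjusted p = 0.00450). With TEV plus reserpine against vehicle it was not called (log2 change -0.33, 95% interval -0.67 to 0.02, edgeR adjusted p = 0.116).

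Ramp2, the partner that makes CALCRL an adrenomedullin receptor, had the reverse pattern. It stood at 44.1 and 36.7 CPM with TEV plus reserpine, 13.9 and 16.1 CPM with TEV, and 42.8 and 53.0 CPM with vehicle. TEV was lowest, and TEV plus reserpine overlapped vehicle. Ramp2 fell with TEV to 0.313 of the vehicle level (log2 change -1.67, SE 0.16, edgeR adjusted p = 0.000256) and was 2.70-fold higher with TEV plus reserpine than with TEV (log2 change 1.43, SE 0.16, edgeR adjusted p = 0.00169). With TEV plus reserpine against vehicle it was not called (log2 change -0.25, 95% interval -0.61 to 0.12, edgeR adjusted p = 0.243).

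Ramp3, the alternative partner, stood at 7.15 and 7.81 CPM with TEV plus reserpine, 2.86 and 4.66 CPM with TEV, and 23.9 and 21.8 CPM with vehicle. It fell with TEV (log2 change -2.58, edgeR adjusted p = 0.000243) and with TEV plus reserpine (-1.61, 0.00231) against vehicle. It was called 0.97 higher with TEV plus reserpine than with TEV (edgeR adjusted p = 0.0224), a call lost without TEV plus reserpine replicate 1 (1.04, 0.0696) or 2 (0.91, 0.0960), or TEV replicate 1 (0.68, 0.0525). Ackr3, a receptor of CXCL12 that also removes adrenomedullin, fell to 6.64 and 12.0 CPM with TEV, against 60.1 and 61.2 CPM with vehicle (log2 change -2.68, edgeR adjusted p = 0.000247). With TEV plus reserpine it stood at 46.6 and 47.3 CPM, above TEV (2.31, edgeR adjusted p = 0.00156), and was not called against vehicle (-0.37, 0.247; called in 3 of 16 alternatives). Gpr182, a scavenging receptor of endothelium on the same list, ran the opposite way. It stood at 21.98 and 17.7 CPM with TEV plus reserpine, 35.6 and 42.6 CPM with TEV, and 4.90 and 3.90 CPM with vehicle. Its log2 change was 3.14 for TEV against vehicle, -0.98 for TEV plus reserpine against TEV and 2.16 for TEV plus reserpine against vehicle (edgeR adjusted p = 4.27e-05, 0.00741 and 0.000261). Whether Gpr182 acts on adrenomedullin was not tested.

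Pam, the enzyme that amidates adrenomedullin and other peptides, rose by 0.85 on the log2 scale in each vesicle group against vehicle (edgeR adjusted p = 0.000187 with TEV and 0.000268 with TEV plus reserpine). Of 8 other genes of this list 7 were tested, with 3 higher and 4 lower with TEV against vehicle, 2 and 1 with TEV plus reserpine against TEV, and 2 and 3 with TEV plus reserpine against vehicle, where 49.7%, 31.6% and 39.1% of all genes tested were called. The eighth, Ramp1, had at most 11.3 estimated counts in a library and was not tested.

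Ace, angiotensin-converting enzyme, was called higher with TEV plus reserpine than with either other group. It stood at 20.3 and 18.7 CPM with TEV plus reserpine, 11.5 and 12.7 CPM with TEV, and 12.5 and 10.8 CPM with vehicle. TEV and vehicle overlapped, with a change of 0.05 (95% interval -0.28 to 0.38, edgeR adjusted p = 0.780) whose sign differed between settings, at -0.05 without vehicle replicate 2 and -0.02 without TEV replicate 2. Ace was 1.61-fold higher with TEV plus reserpine than with TEV (19.5 ± 1.18 against 12.1 ± 0.810 CPM, SD, n = 2 each; log2 change 0.69, SE 0.14, edgeR adjusted p = 0.0121) and 1.67-fold higher than with vehicle (log2 change 0.74, SE 0.14, edgeR adjusted p = 0.00661). The call against TEV ended without TEV replicate 1 (log2 change 0.61, edgeR adjusted p = 0.0634) or TEV plus reserpine replicate 1 (0.63, 0.0637). Of 15 other angiotensin and kinin genes 8 were tested, with 2 higher and 4 lower with TEV against vehicle, 0 and 3 with TEV plus reserpine against TEV, and 0 and 6 with TEV plus reserpine against vehicle, beside 49.7%, 31.6% and 39.1% of all genes tested called. The angiotensin receptor gene Agtr1a was among the 7 with too few counts to test, at no more than 7.08 estimated counts in any library.

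Over the 5 lists of other vasoactive genes, 63 of 77 were tested. With TEV against vehicle 20 were higher and 23 lower, with a median log2 change of -0.14, and the share of all genes tested that was called was 49.7% there, 31.6% between TEV plus reserpine and TEV, and 39.1% between TEV plus reserpine and vehicle. Between TEV plus reserpine and TEV, 12 were higher and 15 lower (median -0.05). That total of 27 calls was 15 without TEV replicate 1, 15 without TEV plus reserpine replicate 1 and 17 without TEV plus reserpine replicate 2. Set against vehicle, TEV plus reserpine had 13 higher and 24 lower (median -0.26), and that total of 37 was 24 without vehicle replicate 1. Of the 70 called values of the 34 partner genes open to naming, 44 held in all 16 alternatives and 26 were lost in at least 1, none changing sign.

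Levels of different genes were set side by side only per kilobase of the longest protein-coding transcript in GENCODE M21. On this scale Ptgs2 led with TEV (588 ± 155 CPM per kb) and with vehicle (362 ± 91.0), whereas Ece1 led with TEV plus reserpine (168 ± 4.54, SD, n = 2 each). Edn1 was the ninth of the 10 genes with vehicle (12.7 ± 0.334 CPM per kb) and the fourth in both vesicle groups (116 ± 1.08 with TEV plus reserpine and 107 ± 23.7 with TEV). Ptgs1 was the second with vehicle, at 109 ± 2.05 CPM per kb, and the last with TEV plus reserpine, at 2.37 ± 0.0649. In the TEV plus reserpine libraries, Adm (132 ± 10.8) followed Ece1 and lay above Edn1 (116 ± 1.08), whereas Ptgs2 (117 ± 23.1) did not differ from either beyond its spread. Ptgis and Nos3 lay in the middle in every group, and Ace was last or next to last.

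The balance within 3 pairs of genes was set out per library. Of the cyclooxygenase transcripts per length, Ptgs2 made up 97.7% and 98.3% with TEV plus reserpine, 98.9% and 98.7% with TEV, and 73.0% and 79.9% with vehicle. Vehicle libraries were the only ones where Ptgs1 held more than a small share. The ratio of Edn1 to Ece1 was 0.675 and 0.710 with TEV plus reserpine, 0.638 and 0.818 with TEV, and 0.124 and 0.133 with vehicle. The ratio of Ramp2 to Calcrl was 2.90 and 1.91 with TEV plus reserpine, 0.368 and 0.530 with TEV, and 1.95 and 2.47 with vehicle. On this scale Calcrl lay above Ramp2 in both TEV libraries and in no other. That rests on the longest coding transcripts, of 4882 bases for Calcrl and 1178 for Ramp2, and which transcripts the cells used is not known. In CPM without length, Calcrl lay above Ramp2 in every library. These ratios are descriptions with no test.

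**Figure D5:**
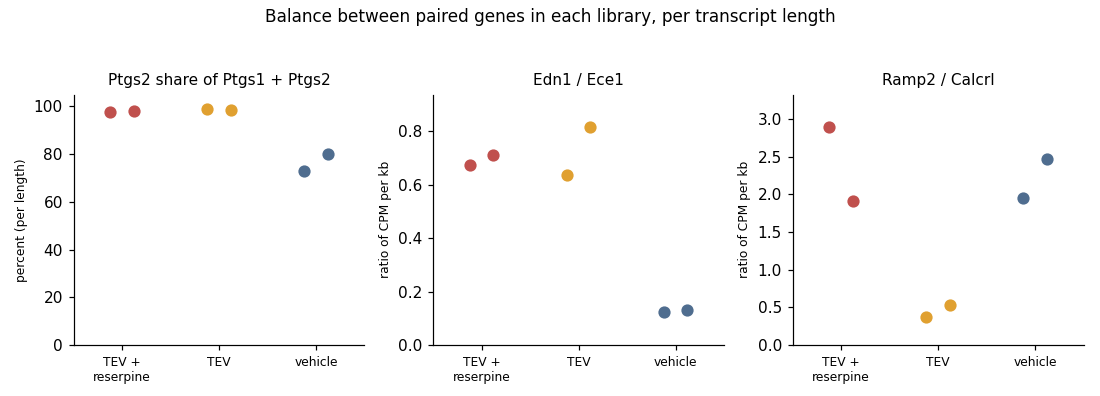
Ratios per transcript length in each library: Ptgs2 as a percent of Ptgs1 plus Ptgs2 (left), Edn1 over Ece1 (middle) and Ramp2 over Calcrl (right), with TEV plus reserpine left, TEV in the middle and vehicle right in each panel. The Ramp2 to Calcrl ratio was 0.368 and 0.530 with TEV and at least 1.91 in the other 4 libraries.

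Likeness of profile over the 6 libraries was measured across the 10430 other genes whose mean reached 5 CPM, and is given as the root mean square difference of centred log2 CPM. Nearest to Edn1 were Smpdl3b (0.13) and Coro1a (0.19), and nearest to Ece1 were Hmgb1 (0.03) and Tuba1b (0.04). Nos3 was closest to Lhx6 (0.04) and Ercc6l (0.05). For Ptgs1 these were Enah (0.37) and Cadm4 (0.38), and for Ptgs2 Gm1966 (0.21) and Lpar2 (0.28), the largest differences among the 10 genes. This measure grows with the size of a gene's changes and does not by itself mean a less similar shape. The Pearson correlation was 0.998 for Ptgs1 with Enah, 0.986 for Ptgs2 with Gm1966, and 0.970 for Ptgis with its nearest gene, Pfdn5. Ptgis ran with Pfdn5 (0.03) and Rpl36al (0.04), Adm with Id1 (0.10) and Smim11 (0.10), and Calcrl with Cdkl2 (0.02) and Phospho2 (0.05). Ramp2 was nearest to Prss12 (0.08) and Pacs1 (0.11), and Ace to Pkn3 (0.05) and Polr2k (0.06). No other vasoactive gene of the lists was among these 20 neighbours. That says little, since the lists of other genes held only 77 and 10430 genes were compared.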

How the data were processed

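RNA was extracted with Trizol, and TruSeq mRNA libraries were read as 75 bp single ends on an Illumina NextSeq, per the labels' protocols. The submitters' processing notes name kallisto 0.45.0, R 4.0.0, edgeR and limma, and the build GRCh38, which is a human build, whereas the deposited symbols are mouse ones; no coordinates come with the counts. The authors deposited estimated counts per symbol, of which 61.2% were not whole. A second deposited table held 13098 of the genes with identical values and was not used. Whether counting used strand is not stated, and overlapping or antisense genes cannot be told apart.

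Estimated counts were rounded, filterByExpr kept 15035 genes, and TMM factors ran from 0.941 to 1.04. One edgeR quasi-likelihood model of all 6 libraries (3 residual degrees of freedom) gave each comparison as a contrast, with Benjamini-Hochberg adjustment over all genes tested. The scripts were tested on simulated data. Standard errors are the log2 change over the square root of its F value, and 95% intervals use the model's total degrees of freedom. CPM and their SDs come from the rounded, filtered counts. Both libraries of each group were distinct beyond counting noise (mean chi-square per gene 20.6 with TEV plus reserpine, 43.3 with TEV and 19.5 with vehicle). Counting intervals cover counting error only. The software was edgeR 4.0.16, DESeq2 1.42.0 and limma 3.58.1 under R 4.3.3.

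Groups follow the sample titles. Another reading of the design text is that all cells had reserpine. The 10 genes and the lists of partner genes and markers were chosen with earlier results of these data known. All 10 genes are named in every comparison. Partner genes were open to naming if called at least once with a mean of at least 5 CPM, or if they act directly with one of the 10, which 34 genes met by the first condition; 15 of these are named, with Ednra and Ptgir, mostly because their calls held in every alternative, a choice made after their values and those of the alternatives were seen. Each of the 10 was given its 2 nearest profiles. Alternatives were other scalings, filters and tools, fits of the groups compared alone, a replicate block, thinned libraries, and leaving out each library, where a lone library is assumed to vary like the others.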

Additional observations from a re-analysis of the deposited data

How the results depend on the processing

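Of 30 values of the 10 genes, 20 were called, 17 of these calls held in the 16 alternatives listed in the methods, and none of the 20 changed sign. The exceptions were Ptgs2 in TEV against vehicle, Ace in TEV plus reserpine against TEV and Adm in TEV plus reserpine against vehicle. Ptgs2 also lost its call with RLE factors (0.69, edgeR adjusted p = 0.0525), upper-quartile factors (0.64, 0.0570), DESeq2 (0.69, adjusted p = 0.0874) and the 2 groups alone (0.67, 0.0542). Of 42 called values of the 17 named partner genes, 35 held in these 16; these genes were named largely because their calls held, and over all 34 genes open to naming the count was 44 of 70.

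Signs changed for 8 uncalled log2 changes, and the cause was not tested. In TEV against vehicle, Ptgis was at -0.093 with library size alone, -0.026 with upper-quartile factors and -0.0019 to 0.064 with 1 library left out. Ace was at -0.073, -0.0062 and -0.050 to 0.16 in the same settings. Gch1 was at 0.059 with limma-voom, 0.0070 with the replicate block, 0.0034 with thinned libraries and -0.29 to 0.33 with 1 library left out, and Pla2g4a at -0.24 to 0.56 with 1 left out. In TEV plus reserpine against TEV, Adm was at 0.018 with library size alone. Pam was at -0.0044 without a filter and Ptgir at -0.070 with thinned libraries. With 1 library left out, the ranges were -0.095 to 0.38 for Edn1, -0.29 to 0.23 for Adm, -0.034 to 0.058 for Pam and -0.27 to 1.15 for Ptgir.

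Leaving out 1 library gave between 5381 and 7430 called genes for TEV against vehicle, 2124 (without TEV replicate 1) to 4315 for TEV plus reserpine against TEV, and 3572 (without vehicle replicate 1) to 5950.0 for TEV plus reserpine against vehicle. For the second comparison, 2581 and 2560.0 genes were called without replicate 1 or 2 of TEV plus reserpine. Among the 10 genes the ranges were 7 to 8, 4 to 6 and 6 to 8, and among partner genes 30 to 41, 15 to 28 and 24 to 39. With fewer libraries the fit has fewer degrees of freedom. By the replicate numbers of the sample titles, deviations of same-numbered libraries correlated at -0.04 to 0.02. These values show no strong shift shared by number, but cannot tell whether libraries were made in pairs. With the replicate block 6864, 3840.0 and 5094 genes were called in the 3 comparisons, with 7, 5 and 7 of the 10 genes, and only the Ptgs2 call was lost among them. The deposited column names carry other numbers (1 and 2 for vehicle, 2 and 3 for both vesicle groups), by which deviations correlated at -0.04 to -0.02. With 2 libraries a group these are the same correlations with the sign kept or turned, so they add nothing on pairing. A replicate block by column number, chosen after seeing the data, leaves 1 residual degree of freedom and kept 26 of the 30 values of the 10 genes on their side of the threshold. It ended the calls of Ptgs2 (0.49, edgeR adjusted p = 0.212), Adm (0.72, 0.0552) and Calcrl (0.67, 0.0618) in TEV against vehicle and of Adm in TEV plus reserpine against vehicle (0.68, 0.0835). It called 4568 genes, 5 of the 10 and 27 partner genes in TEV against vehicle, and 2702 genes and 21 partner genes in TEV plus reserpine against vehicle. Low counts limit Ednra, with 2 counts in TEV and 1 in TEV plus reserpine.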
